A study of Mus musculus with 19 samples.

Results

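The expression of 20998 genes was compared between macrophages sorted from the bone marrow of mice with breast cancer bone metastasis and macrophages sorted from healthy bone marrow. The members of this comparison were the arrays whose titles name these cells, 5 from metastasis and 5 from healthy bone, and they make up 10 of the 19 arrays of the series. Each array was an Affymetrix MoGene 2.0 ST chip, which measures the transcripts of mouse genes by hybridisation of labelled cDNA to short probes. The metastases were made with MetBo2, a clone of the murine breast cancer line Met-1 that had been selected for homing to bone and goes back to a mammary tumour driven by the polyoma middle T oncoprotein. Per the labels, 4-week-old female mice received an injection of 100000 of these cells into the heart, and they were otherwise untreated. For the healthy mice neither an age nor an injection is stated, and the sources used here give no strain, time from injection to sorting, sort marker or processing batch. Age, injection, batch and a single tumour clone therefore cannot be told apart from the presence of bone metastasis. Whether each array holds the cells of its own mouse is not stated, and the p-values therefore describe the spread between these samples, which may be technical.

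Marrow macrophages take up dying cells and cell debris, engulf the nuclei that maturing red cells expel, recycle iron from old erythrocytes and support blood cell production. Through surface lectins, scavenger receptors and Fc receptors they sense microbes and damaged tissue, and they answer interferons and cytokines by making chemokines, which draw T cells, NK cells and myeloid cells into tissue. In tumours, macrophages and the monocytes that feed them are known to change their lipid handling, their cytokine output and their receptors.

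The 10 arrays were alike in scale and correlation. Array medians lay between 4.463 and 4.551 on the log2 scale, and pairs of arrays correlated at r = 0.978 to 0.993 across genes. The leading principal component carried 24.1% of the variance and set healthy array 1 apart from the rest, while healthy array 5 and metastasis array 2 lay between the groups for many of the genes below. Xist stood at 10.7 to 10.9 and 4 Y-linked genes at 2.22 to 2.87 on all 10 arrays, which is the pattern of female mice. The latter range shows where some genes without a transcript lie. The mean levels of stromal and bone-forming genes (3.586 to 3.815) and of epithelial tumour genes (3.778 to 3.957) lay above it. A level near 4 may therefore also be background. Differences from such healthy values, as for Saa3, Lipg, Iigp1, Acod1, Dnase1l3 and Ifi44 below, have no exact size. The same holds for falls to such metastasis values, as for Tnfrsf17, Clec4b1, Dennd5b and Hid1 below. Of 12 defining macrophage genes none passed the test, and their mean level was 8.35 to 8.97 on the healthy and 8.51 to 8.70 on the metastasis arrays. Adgre1, an adhesion receptor gene that marks mouse macrophages, differed by -0.35 ± 0.17 (SE), Csf1r, the receptor gene for macrophage colony-stimulating factor, by -0.35 ± 0.19 (SE), and Cd68, a lysosomal glycoprotein gene, by -0.23 ± 0.12 (SE). The same arrays also carried transcripts of plasma cells, lymphocytes and neutrophils at levels well above that of the Y-linked genes, as given below. In such bulk samples fewer cells of a type and less RNA per cell cannot be told apart.

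At an adjusted p below 0.05, 65 of 20998 genes passed (0.31%), of which 38 were higher (0.181%) and 27 lower (0.129%) in metastasis. The groups had no overlap between their arrays for 59 of the 65 and for 405 of all genes (1.93%; 0.976% with metastasis higher and 0.952% with it lower), and 38 of the 65 differed by at least 2-fold. The median difference of all genes was 0.0021 on the log2 scale, 50.6% of genes were higher in metastasis, and 2015 (9.6%) had an unadjusted p below 0.05. The median standard error of a difference was 0.123, so that a change of 0.5 was often missed. In data simulated at this size the fit found 41.8% of the genes shifted by 0.5 and 88.1% of those shifted by 1. These shares depend on the number and size of the simulated shifts and may be too high for the real data. Some real differences above 1 did not pass, as for Stfa1 (1.65 ± 0.33, SE), Oas2 (1.28 ± 0.31, SE) and F11r (1.21 ± 0.26, SE), while the 38 genes named above did. The number of genes past the threshold rose to 131 without healthy array 5 and to 103 without metastasis array 2. It fell to between 35 and 43 without healthy array 2, 3 or 4 or without metastasis array 1, 3, 4 or 5, and 27 of the 65 genes kept their call in all 10 leave-one-out fits, each of which drops a single array. The gene lists below were drawn up with earlier results of these data known. Their counts and medians are descriptions and not separate support.

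**Figure D1:**
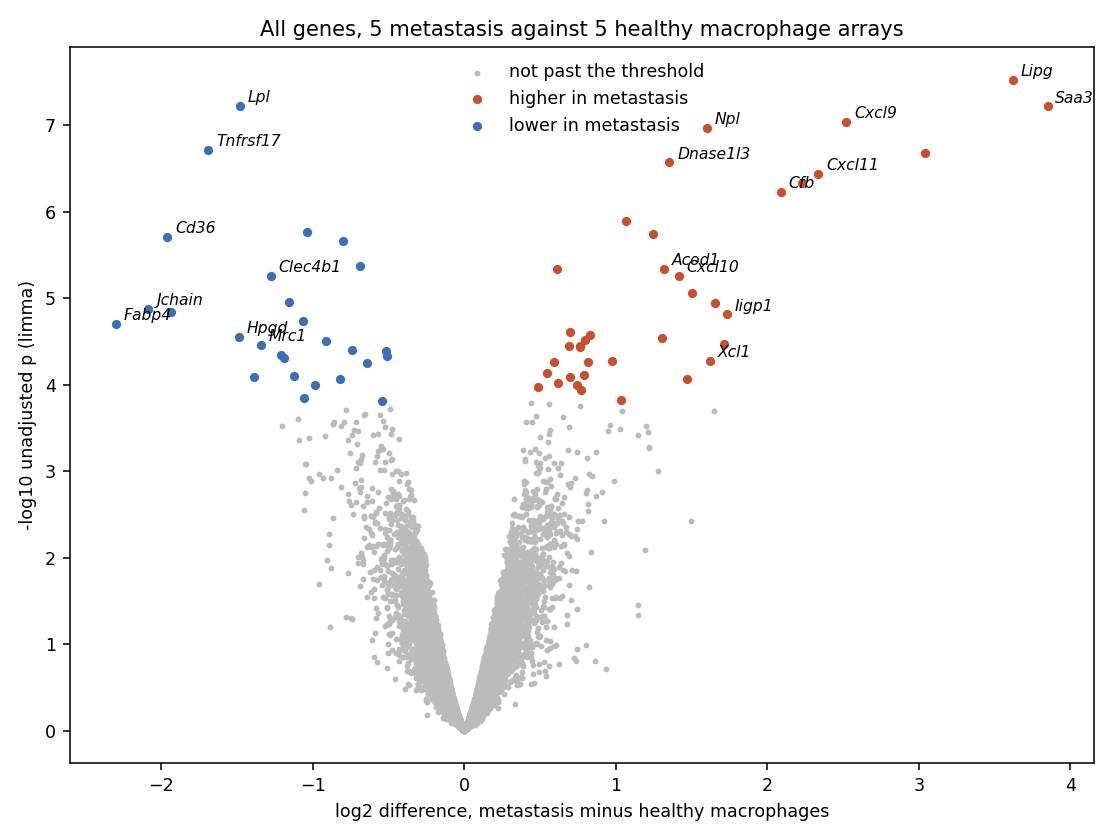
The x axis gives the log2 difference of each of 20998 genes, metastasis minus healthy macrophages, and the y axis the negative log10 of the unadjusted p of limma. Red and blue points are the 38 genes higher and the 27 genes lower in metastasis at an adjusted p below 0.05, with Saa3 and Lipg farthest to the right and Fabp4 and Jchain farthest to the left.

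Chemokine genes held 4 of the 38 rises. Of 26 measured members these 4 rose and none fell, and 17 were higher in metastasis with a list median of 0.22. Cxcl9, Cxcl10 and Cxcl11 encode the 3 ligands of the receptor CXCR3, which activated T cells and NK cells carry, and are classical targets of interferon gamma. Xcl1 encodes lymphotactin, a ligand of the receptor of cross-presenting dendritic cells, and is known mainly as a product of NK cells and T cells. The 250 bases before the RefSeq start sites of Cxcl9, Cxcl10 and the acute-phase gene Saa3 are shown here because these genes rose together and their promoters are known targets of interferon and inflammatory factors. They are printed on the gene's strand, with their GRCm38.p6 positions, in lower case, and capitals mark matches to 4 motifs searched on both strands. The motifs were an interferon-response-like GAAANNGAAA, a STAT-like TTCNNNGAA, an NF-kB-like GGGANNTNCC and a C/EBP-like TTGCNNAA.
Cxcl9: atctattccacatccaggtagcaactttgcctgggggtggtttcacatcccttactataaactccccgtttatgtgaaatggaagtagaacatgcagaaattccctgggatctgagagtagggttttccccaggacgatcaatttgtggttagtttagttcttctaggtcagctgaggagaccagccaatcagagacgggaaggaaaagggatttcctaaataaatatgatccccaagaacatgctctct
Cxcl10: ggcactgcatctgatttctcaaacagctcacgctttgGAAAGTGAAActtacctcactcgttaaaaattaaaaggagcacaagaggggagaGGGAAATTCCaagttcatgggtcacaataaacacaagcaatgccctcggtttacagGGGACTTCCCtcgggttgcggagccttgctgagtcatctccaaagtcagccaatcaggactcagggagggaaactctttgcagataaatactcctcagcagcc
Saa3: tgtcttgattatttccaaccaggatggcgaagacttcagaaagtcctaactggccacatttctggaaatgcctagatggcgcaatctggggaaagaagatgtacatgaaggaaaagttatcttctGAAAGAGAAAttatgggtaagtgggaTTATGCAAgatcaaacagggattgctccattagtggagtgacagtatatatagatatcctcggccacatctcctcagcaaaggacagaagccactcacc
The Cxcl9 window is chr5:92328080-92328329, the Cxcl10 window chr5:92348890-92349139 and the Saa3 window chr7:46715677-46715926, all on the minus strand. The Cxcl10 window held 1 interferon-response-like and 2 NF-kB-like matches, the Saa3 window 1 interferon-response-like and 1 C/EBP-like match, and the Cxcl9 window none of the 4. Among 32851 windows of the same length, 2.98% held the interferon-response-like, 7.02% the STAT-like, 3.33% the NF-kB-like and 9.56% the C/EBP-like motif. A match describes the letters of a window and is not a binding site, and a window without one says nothing of the factor.

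Cxcl9 stood at 7.75, 7.02, 6.76, 6.79 and 6.63 on healthy arrays 1 to 5 and at 9.82, 8.52, 9.86, 9.52 and 9.83 on metastasis arrays 1 to 5. All metastasis arrays lay above all healthy ones, with metastasis array 2 the lowest of its group and healthy array 1 the highest of its own. The difference was 2.52 ± 0.26 (SE) on the log2 scale, a rise of 5.74-fold (adjusted p = 0.000447). Cxcl11 stood at 4.74, 4.40, 4.79, 4.54 and 5.35 on the healthy and at 7.23, 5.97, 7.60, 7.17 and 7.53 on the metastasis arrays and rose 5.05-fold (adjusted p = 0.000841). Cxcl10 stood at 5.34, 5.39, 5.46, 5.06 and 4.99 and at 6.97, 5.86, 7.22, 6.58 and 6.68 and rose 2.67-fold (adjusted p = 0.00554). Metastasis array 2 was the lowest metastasis array for all 3 genes and still lay above every healthy array. Xcl1 stood between 6.99 and 7.69 on the healthy arrays and at 8.74, 8.72, 7.80, 9.34 and 9.84 on the metastasis arrays, a rise of 3.07-fold (adjusted p = 0.0234), with metastasis arrays 4 and 5 highest and metastasis array 3 just above the healthy range. The call of Xcl1 was lost in 4 of 10 leave-one-out fits (highest adjusted p 0.0853). Among chemokine genes that did not pass, the next differences were those of Ccl12, a ligand of CCR2, at 1.22 ± 0.27 (SE) with healthy arrays near the level of the Y-linked genes, and of Cxcl16, the membrane-bound ligand of CXCR6, at 0.80 ± 0.21 (SE). Pf4, the platelet factor gene, was the lowest of the list at -0.66.

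Genes that interferons induce followed in part. Of 16 measured interferon gamma-induced GTPase genes, which encode proteins that attack the vacuoles of intracellular microbes, 2 rose and 15 were higher in metastasis, with a median of 0.45 against 0.0021 for all genes. On average the list stood at 4.93 to 5.55 on the healthy and at 5.54 to 6.16 on the metastasis arrays, with healthy array 1 just above metastasis array 4. Iigp1 stood at 3.83, 3.84, 3.74, 4.17 and 3.77 on the healthy arrays and at 6.48, 5.07, 6.38, 5.09 and 5.00 on the metastasis arrays. Metastasis arrays 1 and 3 were the highest, and all 5 lay above the healthy range, a rise of 3.32-fold (adjusted p = 0.0119). Gm4951, a related GTPase gene, rose from 4.52, 3.39, 3.97, 4.26 and 4.06 to 5.72, 5.16, 6.61, 5.73 and 5.24, by 3.15-fold (adjusted p = 0.00987), with metastasis array 3 highest. Of the guanylate-binding protein genes, Gbp5 differed by 0.92 ± 0.27 (SE) and Gbp4 by 0.75 ± 0.22 (SE), and neither passed. Of 31 type I interferon-stimulated genes only Ifi44 rose, by 0.80 ± 0.13 (SE; adjusted p = 0.0185), while 26 of the 31 were higher in metastasis with a median of 0.26. On average these 31 stood at 5.42 to 5.92 on the healthy and at 5.76 to 6.23 on the metastasis arrays, and healthy array 1 lay above metastasis arrays 2, 4 and 5. Ifi44 lost its call in 3 of 10 leave-one-out fits (highest adjusted p 0.0616). Oas2, which encodes an antiviral oligoadenylate synthetase, stood at 6.44, 6.08, 5.84, 5.43 and 5.68 on the healthy and at 7.45, 5.76, 7.76, 7.60 and 7.30 on the metastasis arrays. Metastasis array 2 lay inside the healthy range and the other 4 metastasis arrays above it, and the difference of 1.28 ± 0.31 (SE) did not pass (adjusted p = 0.131). Without metastasis array 2 it did pass (adjusted p = 0.000577), but that array was picked from these values.

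The receptors, signal transducers and antigen-presenting genes of the interferon pathways had medians near that of all genes. None of 21 interferon receptor and signal genes passed, and their median was 0.01. Ifngr1, one chain of the interferon gamma receptor, was -0.32 ± 0.10 (SE) lower and its groups did not overlap. The feedback inhibitor gene Socs3 stood at 5.66, 5.70, 5.85, 5.33 and 5.56 on the healthy arrays and at 6.17, 5.86, 6.23, 6.40 and 6.22 on the metastasis arrays, without overlap, and its difference of 0.55 ± 0.12 (SE) did not pass (adjusted p = 0.0866). None of 15 MHC class I and none of 11 MHC class II presentation genes passed, with medians of -0.02 in each list. Of 19 costimulatory and checkpoint genes none passed either (median -0.02).

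Saa3 showed the largest rise of all genes. It encodes serum amyloid A3, an acute-phase protein that macrophages and other cells make outside the liver, and stood at 3.81, 3.94, 3.63, 4.05 and 3.63 on the healthy arrays and at 8.66, 6.06, 8.49, 8.01 and 7.09 on the metastasis arrays. The lowest metastasis array, number 2, lay well above the highest healthy one, and the rise was 14.4-fold (log2 3.85 ± 0.38, SE; adjusted p = 0.000422). The healthy values may be background, so this fold has no exact size. Saa3 was the only gene of 20 acute-phase and secreted defence genes past the threshold, and the list median was 0.03. Cfb, the factor B gene of the alternative complement pathway, stood at 6.14, 5.59, 5.45, 5.49 and 5.43 on the healthy and at 8.18, 6.74, 8.35, 7.62 and 7.68 on the metastasis arrays, and rose 4.26-fold without overlap (adjusted p = 0.00112). Among 20 complement genes it was again the only one that passed (median 0.03). C4b, of the classical pathway, differed by 0.57 ± 0.17 (SE), and C1qa, C1qb and C1qc, the chains of C1q, by 0.61 ± 0.25, 0.49 ± 0.24 and 0.42 ± 0.18 (SE). The highest array for each C1q gene was metastasis array 3 or 5, and their groups overlapped. Of 13 Fc receptor genes none passed: Fcgr1, the high-affinity IgG receptor gene, stood at 0.78 ± 0.22 (SE) and Fcgrt, the neonatal Fc receptor gene, at -0.77 ± 0.20 (SE).

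Among lipid genes some rose and others fell. Lipg, which encodes endothelial lipase, a secreted phospholipase that acts on high-density lipoprotein, stood at 3.66, 3.85, 3.12, 3.33 and 4.08 on the healthy arrays and at 7.16, 6.15, 6.57, 8.06 and 8.19 on the metastasis arrays. Metastasis arrays 4 and 5 were the highest, no array overlapped, and the rise was 12.3-fold (log2 3.62 ± 0.34, SE; adjusted p = 0.000422). The healthy values of Lipg may be background too, so its fold has no exact size. Lpl, its relative that frees fatty acids from triglyceride-rich lipoproteins, moved the other way, from 7.80, 7.49, 7.84, 7.67 and 7.54 to 6.34, 6.06, 6.68, 6.02 and 5.85. Its groups did not overlap, and it fell by 1.48 ± 0.14 (SE; adjusted p = 0.000422). In 23 lipase and triglyceride genes 1 rose (Lipg) and 2 fell (Lpl and Pnpla7, a lysophospholipase gene, which fell by 0.54 ± 0.11, SE), with a median of 0.01. The call of Pnpla7 was lost in each of the 10 leave-one-out fits (highest adjusted p 0.153).

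Of 19 genes of PPAR-gamma and fatty acid uptake 3 fell and none rose. Cd36, the fatty acid translocase and scavenger receptor gene, stood at 9.06, 8.90, 8.45, 8.57 and 7.58 on the healthy arrays and at 5.97, 7.04, 6.39, 6.43 and 6.94 on the metastasis arrays. Healthy array 5 was the lowest of its group and metastasis array 2 the highest of its own, still without overlap, and Cd36 fell by 1.96 ± 0.26 (SE; adjusted p = 0.00273). Fabp4, a fatty acid-binding protein gene and a target of PPAR-gamma, stood at 8.08, 7.78, 7.92, 8.18 and 5.85 on the healthy and at 4.67, 5.93, 5.05, 5.45 and 5.23 on the metastasis arrays. Here healthy array 5 lay just below metastasis array 2, so that the groups overlapped, and Fabp4 fell by 2.30 ± 0.37 (SE; adjusted p = 0.0145). It fell by 2.72 when healthy array 5 was left out. Without healthy array 2 or 4 the call was lost (highest adjusted p 0.0567). Pparg itself, the gene of the nuclear receptor, stood at 6.74, 6.70, 6.87, 6.67 and 5.25 on the healthy and at 5.18, 5.86, 5.30, 5.49 and 5.33 on the metastasis arrays. Healthy array 5 lay inside the metastasis range, and the difference of -1.01 ± 0.25 (SE) did not pass (adjusted p = 0.151). Without healthy array 5 it did pass (adjusted p = 0.000696), but that array was picked from these values. The mean level of 12 genes of the Ly6C-low monocyte, Fabp4 among them, was low on the same arrays (8.21 on healthy array 5 and 7.79 to 8.39 on the metastasis arrays, against 8.93 to 9.10 on healthy arrays 1 to 4), and the part of these cells in the falls of Cd36 and Fabp4 was not tested. The median of the PPAR-gamma list was -0.09 and its mean -0.36. Cpt1a, the entry enzyme of mitochondrial fatty acid oxidation, was lower without overlap but did not pass (-0.57 ± 0.12, SE; adjusted p = 0.0761), and none of 21 fatty acid oxidation genes did.

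Sterol and fatty acid synthesis genes leaned upward. Of 25 genes 1 rose and 18 were higher in metastasis, with a median of 0.15. On average the list stood at 5.95 to 6.18 on the healthy and at 6.14 to 6.43 on the metastasis arrays, so that the groups overlapped. Idi1, which makes the isoprene unit that sterols are built from, rose by 0.74 ± 0.14 (SE; adjusted p = 0.0352), and Cyp51, the lanosterol demethylase gene, was higher without overlap but did not pass (0.50 ± 0.11, SE; adjusted p = 0.0792). The stearoyl-CoA desaturase gene Scd2 stood at 6.41, 6.78, 6.46, 6.43 and 6.68 on the healthy and at 7.13, 7.45, 7.13, 7.37 and 7.82 on the metastasis arrays and rose by 0.83 ± 0.14 (SE; adjusted p = 0.018). Its paralog Scd1 stood at -0.76 ± 0.28 (SE) and did not pass. Abca9, an ABC transporter gene of the family that moves lipids, fell by 1.06 ± 0.21 (SE; adjusted p = 0.0474). Idi1 and Abca9 lost their calls in 7 and 8 of 10 leave-one-out fits (highest adjusted p 0.113 and 0.139), and Scd2 in 2 (highest adjusted p 0.0616).

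**Figure D2:**
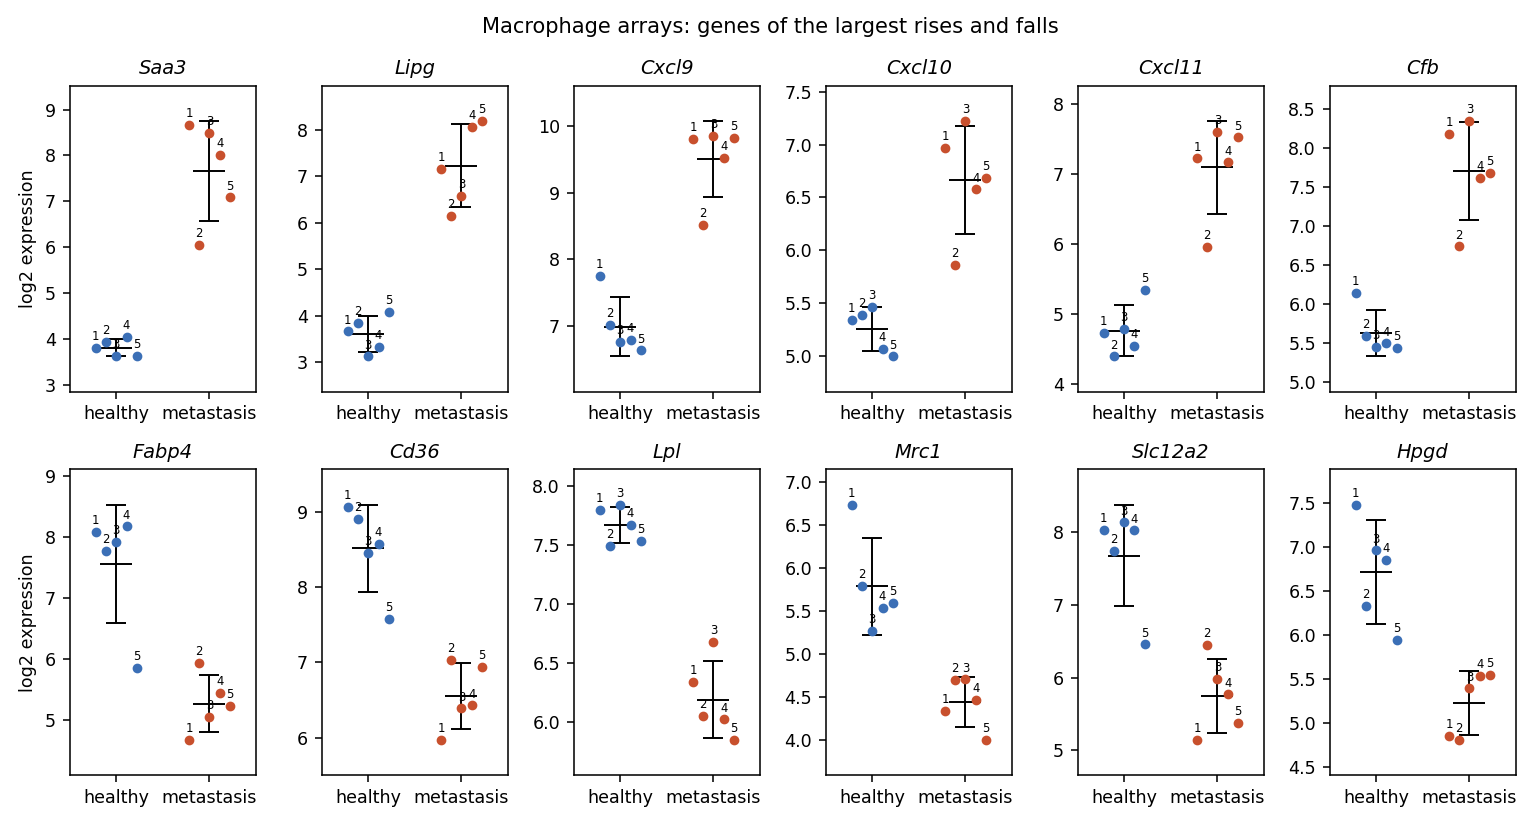
Each panel shows the log2 expression of 1 gene on the 5 healthy (blue) and 5 metastasis (red) macrophage arrays, numbered by replicate, with horizontal bars for the mean and 1 SD on either side. The y axes differ between panels and do not start at 0, and Fabp4 is the only one of the 12 genes whose groups overlap.

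Surface lectins of macrophages and dendritic cells were mostly lower in metastasis. Of 26 C-type lectin genes 2 fell, none rose and 20 were lower, with a median of -0.30. Mrc1, the mannose receptor gene and a marker of resident and alternatively activated macrophages, stood at 6.74, 5.79, 5.27, 5.53 and 5.60 on the healthy arrays and at 4.34, 4.70, 4.70, 4.47 and 4.00 on the metastasis arrays. It fell by 1.34 ± 0.23 (SE; adjusted p = 0.0191) without overlap, and the call was lost in 4 of 10 leave-one-out fits (highest adjusted p 0.0601). Clec4b1, a lectin gene of monocyte-derived and dendritic cells, stood at 5.76, 5.28, 5.27, 4.91 and 5.26 and at 3.88, 3.93, 4.31, 3.50 and 4.48 and fell by 1.28 ± 0.18 (SE; adjusted p = 0.00554). Clec10a, Cd209d and Cd209a differed by -1.05 ± 0.25, -1.04 ± 0.25 and -1.02 ± 0.25 (SE) and did not pass. Metastasis array 2 lay within the healthy range for Cd209a and Cd209d, at 7.63 and 5.15. Of 21 alternative activation genes Mrc1 was the only one that passed (median -0.18), and of 15 dendritic cell genes Clec4b1 (median -0.21). The dendritic cell list as a whole stood at 6.12 to 6.61 on the healthy and 5.68 to 6.20 on the metastasis arrays.

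Marrow-resident macrophage genes held 2 falls among 22, with a median of -0.05. Besides Mrc1, the gene that fell was Hpgd, the enzyme that inactivates prostaglandins. Hpgd stood at 7.48, 6.34, 6.96, 6.85 and 5.95 on the healthy arrays and at 4.86, 4.81, 5.40, 5.53 and 5.55 on the metastasis arrays, without overlap, and fell by 1.49 ± 0.25 (SE; adjusted p = 0.0183). The call was lost in 3 of 10 leave-one-out fits (highest adjusted p 0.0616). Spic, a transcription factor gene of iron-recycling macrophages, and Vcam1, an adhesion molecule gene of the same cells, stood at -0.67 ± 0.18 and -0.60 ± 0.20 (SE), while Timd4, a receptor gene for dying cells, stood at 0.52 ± 0.17 (SE). None of these 3 passed. The prostaglandin E2 receptor gene Ptger4 was lower without overlap (-0.69 ± 0.16, SE; adjusted p = 0.115).

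Cytokine genes changed singly. Il1r2, the decoy receptor for interleukin-1, stood at 5.18, 5.50, 5.45, 6.37 and 5.47 on the healthy arrays and at 6.94, 6.44, 7.57, 7.28 and 7.25 on the metastasis arrays. Metastasis array 2 lay just above healthy array 4, the highest of its group, and the rise was 2.83-fold (adjusted p = 0.00828). The call was lost when the spread was shared with the 9 monocyte arrays (adjusted p = 0.24). Il1f9, which encodes interleukin-36 gamma, stood at 5.16, 6.29, 6.13, 6.14 and 6.25 and at 7.33, 6.80, 7.06, 7.61 and 7.69, with healthy array 1 far below the others, and rose 2.47-fold (adjusted p = 0.0184), a call lost in 3 of 10 leave-one-out fits (highest adjusted p 0.0617). These were the genes past the threshold among 15 of the IL-1 and IL-18 family, whose median was -0.03. Bcl3, an IkB family cofactor of NF-kB, stood at 7.49, 7.41, 6.98, 7.56 and 7.14 on the healthy and at 8.42, 8.17, 8.40, 8.79 and 9.02 on the metastasis arrays and rose 2.37-fold without overlap (adjusted p = 0.00267). It was the only one of 23 TNF and NF-kB genes that passed (median -0.03), and the only one of 18 SOCS and STAT3 genes (median 0.06). Csf2rb, the shared receptor chain for GM-CSF, interleukin-3 and interleukin-5, rose by 0.55 ± 0.10 (SE; adjusted p = 0.0296), a call lost in 8 of 10 leave-one-out fits (highest adjusted p 0.0964). Its mouse paralog Csf2rb2, which is nearly identical in sequence so that probes may not separate the pair, stood at 0.70 ± 0.18 (SE) and did not pass. Il4ra, the interleukin-4 receptor gene, was higher without overlap but did not pass (0.49 ± 0.12, SE; adjusted p = 0.133). Ier3, an early response gene of survival signals, rose by 0.62 ± 0.12 (SE; adjusted p = 0.0345), the only one of 25 immediate early and mRNA decay genes (median -0.10), and lost its call in 8 of 10 leave-one-out fits (highest adjusted p 0.119).

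Genes of the Ly6C-low, patrolling monocyte were lower as a list. Of 12 genes 1 fell, Fabp4 (also counted above), and 11 were lower, with a median of -0.68. Over alternative settings of the fit and with arrays left out, this median ran from -0.89 to -0.60. The mean level of the list was 8.93 to 9.10 on healthy arrays 1 to 4, 8.21 on healthy array 5 and 7.79 to 8.39 on the metastasis arrays. Healthy array 5 therefore lay among the metastasis arrays. Ace, which encodes angiotensin-converting enzyme, stood at 9.84, 9.65, 9.44, 9.55 and 8.25 and at 7.60, 8.93, 7.82, 8.59 and 8.51, and Treml4, a receptor gene for dying cells, at 9.83, 9.71, 9.71, 9.85 and 8.79 and at 8.45, 9.17, 8.78, 9.03 and 8.89. Nr4a1, the transcription factor that these monocytes need, differed by -0.88 ± 0.22 (SE), Cd300e by -1.05 ± 0.27 (SE) and Cx3cr1, the fractalkine receptor gene, by -0.64 ± 0.17 (SE). In each of these 5 genes healthy array 5 lay inside the metastasis range, and none passed. Without that array all 5 passed (adjusted p from 0.00858 to 0.0314). That array was picked from these same values, so these passes are not separate support. Paired receptor genes of the Cd300 family stood lower as well, Cd300a without overlap (-0.81 ± 0.17, SE; adjusted p = 0.0699), Cd300ld (-0.84 ± 0.20, SE) and Cd300lb (-0.53 ± 0.12, SE), none past the threshold. Of 16 Ly6C-high monocyte genes Vcan, the versican gene, rose by 1.47 ± 0.27 (SE; adjusted p = 0.0312), with healthy array 1 at 8.11 inside the metastasis range. The median of that list was 0.15, Ccr2, the receptor gene by which these monocytes leave the marrow, stood at 0.12 ± 0.14 (SE), and Vcan lost its call in 7 of 10 leave-one-out fits (highest adjusted p 0.102).

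Stefin A genes, which encode small inhibitors of cysteine proteases and in mouse are known from neutrophils, rose in part. Stfa2l1 stood at 6.92, 8.45, 6.92, 7.49 and 7.72 on the healthy arrays and at 9.39, 9.32, 10.11, 9.99 and 9.85 on the metastasis arrays, a rise of 4.7-fold without overlap (adjusted p = 0.00096). Gm5483, which RefSeq lists as Cstdc4 of the same gene row, stood at 2.98, 3.06, 2.82, 3.09 and 2.85 and at 6.36, 4.34, 6.69, 6.48 and 6.15, with healthy values near those of the Y-linked genes and metastasis array 2 below the other 4, and rose 8.24-fold (adjusted p = 0.00063). Stfa3 rose 3.29-fold (adjusted p = 0.0191), although metastasis array 2 at 6.74 lay below healthy array 2 at 6.87, and its call was lost in 5 of 10 leave-one-out fits (highest adjusted p 0.0631). Stfa1 and Stfa2 differed by 1.65 ± 0.33 and 0.91 ± 0.24 (SE) and did not pass (adjusted p = 0.0582 and 0.173). Csta1, Csta3 and Csta2 of the same row stood at 0.01, 0.05 and -0.03. BC117090, which stands in the S100 and stefin list and has no match in the RefSeq table, rose by 1.07 ± 0.13 (SE; adjusted p = 0.0022). Stefin copies are nearly identical, so probes may share signal between them and the separate values are uncertain.

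Stfa1, Stfa2, Stfa2l1 and Stfa3 also stand in a mature neutrophil list of 18 measured genes, which does not hold Gm5483 or BC117090. Of the 18, 3 rose (Stfa2l1, Stfa3 and Il1f9), none fell and 15 were higher, with a median of 0.29. The mean level of the list was 7.32 to 7.88 on the healthy and 8.06 to 8.42 on the metastasis arrays, without overlap. This level includes the stefins and Il1f9, and it was not taken without them. The mean difference of the list was 0.59, above its median. The groups also did not overlap for Retnlg, a resistin-like gene (0.99 ± 0.25, SE; adjusted p = 0.151), Cxcr2, the receptor gene that guides neutrophils (0.69 ± 0.16, SE; adjusted p = 0.0977), and Lrg1 (0.38 ± 0.12, SE; adjusted p = 0.304). S100a8 and S100a9, the calprotectin genes of neutrophils and monocytes, both stood at -0.03. Of 15 neutrophil granule precursor genes none passed (median 0.09), with Prtn3, the proteinase 3 gene, higher without overlap (0.96 ± 0.20, SE; adjusted p = 0.0695). The part of neutrophil RNA in the rises of the stefins, Il1f9 and Il1r2 was not tested.

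Plasma cell genes had the lowest median of the 81 gene lists. Of 16 genes 5 fell, none rose and all 16 were lower, with a median of -0.79 that ran from -1.0 to -0.73 over alternative settings and left-out arrays. Jchain, the chain that joins IgM and IgA units, stood at 10.27, 10.48, 10.39, 10.45 and 10.13 on the healthy arrays and at 8.06, 9.88, 7.86, 7.89 and 7.60 on the metastasis arrays. Metastasis array 2 lay just below the healthy arrays and the other 4 far below, and Jchain fell by 2.08 ± 0.32 (SE; adjusted p = 0.0112). Jchain fell by 2.49 when that array was left out. Tnfrsf17, the gene of the plasma cell survival receptor BCMA, stood at 5.00, 5.18, 4.94, 5.75 and 5.90 and at 4.00, 3.70, 3.57, 3.47 and 3.60, with no array between the groups, and fell by 1.69 ± 0.18 (SE; adjusted p = 0.00063). Mzb1, an endoplasmic reticulum protein gene of antibody-secreting cells, stood at 8.02, 8.02, 7.83, 8.18 and 7.50 and at 6.20, 7.73, 6.14, 6.30 and 6.24. Metastasis array 2 lay inside the healthy range, and Mzb1 fell by 1.39 ± 0.26 (SE; adjusted p = 0.0312). Mzb1 fell by 1.69 when that array was left out. Pou2af1, the B cell coactivator gene, fell by 1.12 ± 0.21 (SE; adjusted p = 0.0312) and Txndc5, a disulfide isomerase gene, fell by 0.98 ± 0.18 (SE; adjusted p = 0.0352). Mzb1, Pou2af1 and Txndc5 lost their calls in 8, 6 and 8 of 10 leave-one-out fits (highest adjusted p 0.111, 0.102 and 0.112). Prdm1, the gene of the plasma cell regulator Blimp-1, was lower without overlap but did not pass (-0.56 ± 0.11, SE; adjusted p = 0.0627). Irf4 differed by -1.09 ± 0.24 (SE), with metastasis array 2 at 6.23 inside the healthy range.

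The mean level of the plasma cell list was 6.64 to 6.88 on the healthy arrays, 6.56 on metastasis array 2 and 5.77 to 5.87 on the other metastasis arrays. Of 18 B lineage genes 16 were lower, with a median of -0.20, and none passed. The mean level of this list was 4.766 to 5.257 on the healthy arrays. Metastasis arrays 2, 4 and 5 lay inside that range (5.058, 4.774 and 5.075) and arrays 1 and 3 below it (4.253 and 4.594). Rag1, the recombinase gene of B cell precursors, was lower without overlap (-0.86 ± 0.18, SE; adjusted p = 0.0695), Cd79a, a chain of the B cell receptor complex, ran from 5.45 to 8.52 within the metastasis group, and Dntt, the terminal transferase gene, stood at 1.14 ± 0.49 (SE). The glycosyltransferase gene St6gal1, which adds sialic acid to glycans and is abundant in B and plasma cells, stood at 7.22, 7.20, 7.38, 7.58 and 6.97 on the healthy and at 5.50, 6.60, 6.07, 6.05 and 6.33 on the metastasis arrays and fell by 1.16 ± 0.18 (SE; adjusted p = 0.00987). Metastasis array 2 was the highest of its group for St6gal1 as for the plasma cell list. Array 1 was the lowest for St6gal1, but not in the plasma cell list. In the B lineage list array 1 was lowest and arrays 2 and 5 highest, as for St6gal1. The part of plasma cell or B lineage RNA in the fall of St6gal1 was not tested.

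**Figure D3:**
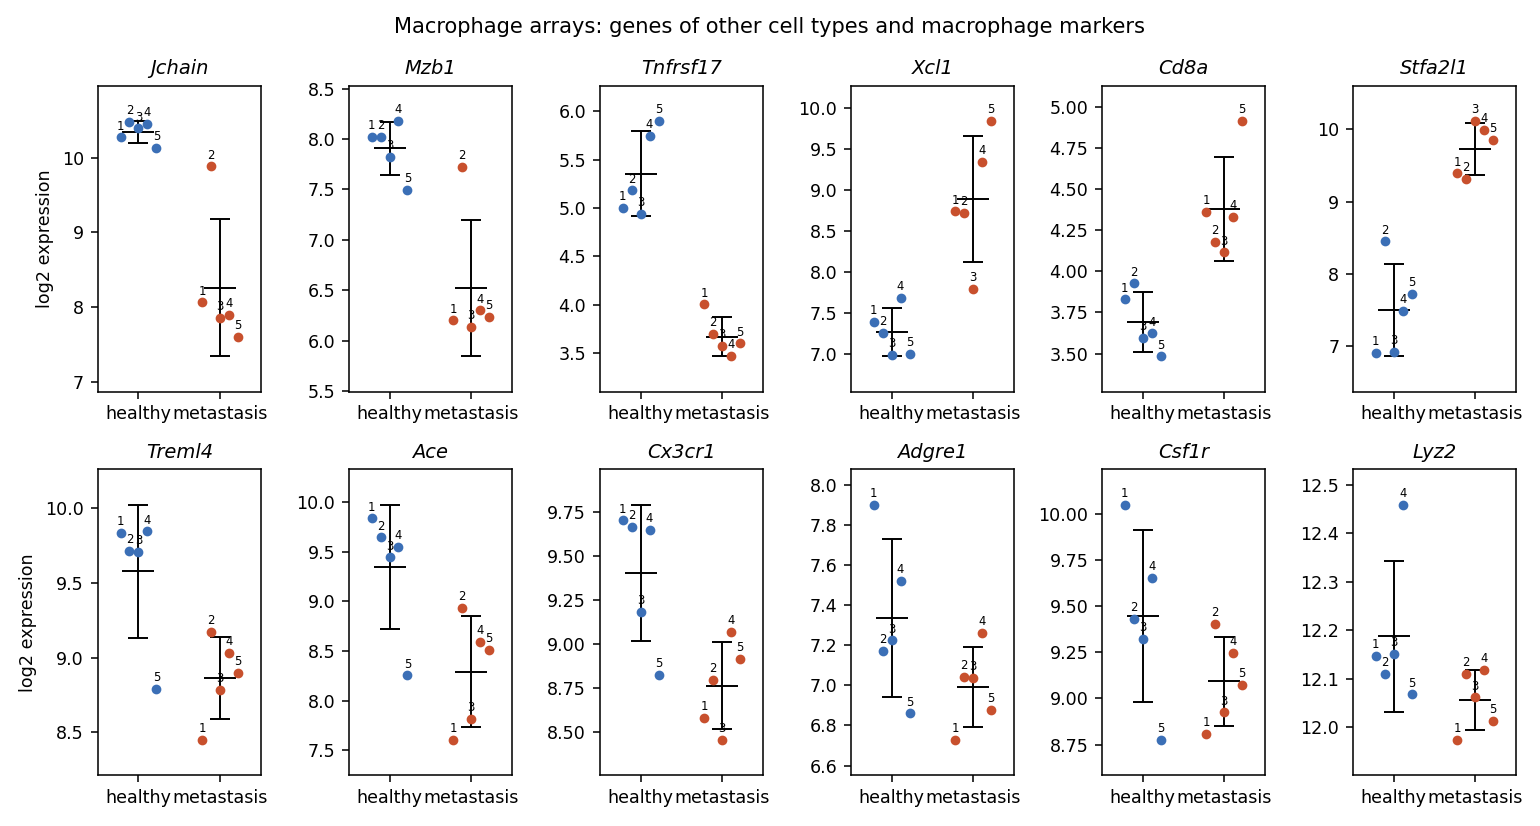
Each panel shows the log2 expression of 1 gene on the 5 healthy (blue) and 5 metastasis (red) macrophage arrays, numbered by replicate, with bars for the mean and 1 SD on either side and a y axis of its own that does not start at 0. Jchain and Mzb1 on metastasis array 2 and Treml4 and Ace on healthy array 5 lie close to or within the other group, and the macrophage genes Adgre1, Csf1r and Lyz2 overlap between groups.

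T and NK cell genes were higher on some metastasis arrays. Of 20 genes 1 rose, Xcl1, and 14 were higher, with a median of 0.44 that ran from 0.21 to 0.57 over alternative settings and left-out arrays. The mean level of the list was 5.23 to 5.76 on the healthy arrays, 5.96 to 6.39 on metastasis arrays 2, 4 and 5, and 5.44 to 5.53 on metastasis arrays 1 and 3. Cd8a, a chain of the cytotoxic T cell coreceptor, stood at 3.83, 3.93, 3.59, 3.62 and 3.48 on the healthy and at 4.36, 4.18, 4.11, 4.33 and 4.91 on the metastasis arrays, without overlap, and did not pass (adjusted p = 0.0709). Ccl5 and Nkg7, a chemokine and a granule gene of cytotoxic cells, stood at 0.60 ± 0.22 and 0.48 ± 0.14 (SE), while Cd3d, a chain of the T cell receptor complex, stood at -0.39 ± 0.19 (SE). None of these 3 passed, and 6 of the 20 genes were lower. Xcl1 was highest on metastasis arrays 4 and 5, where this list, which includes Xcl1, was high. On metastasis array 1, where the list lay inside the healthy range, Xcl1 stood as high as on array 2. The list level was not taken without Xcl1, and the part of lymphocyte RNA in the rise of Xcl1 was not tested. Stem and progenitor genes had the same 3 arrays on top: none of 15 passed, 14 were higher with a median of 0.26, and their mean level was 5.29 to 5.48 on the healthy arrays, 5.84 to 6.10 on metastasis arrays 2, 4 and 5, and 5.33 to 5.42 on arrays 1 and 3. Siglech, a marker gene of plasmacytoid dendritic cells, stood at 4.29, 7.95, 5.24, 6.57 and 7.44 on the metastasis arrays against 4.74 to 5.40 on the healthy ones, high again on arrays 2, 4 and 5. Of 23 epithelial tumour genes none passed, 11 were higher, and their median was -0.01.

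**Figure D4:**
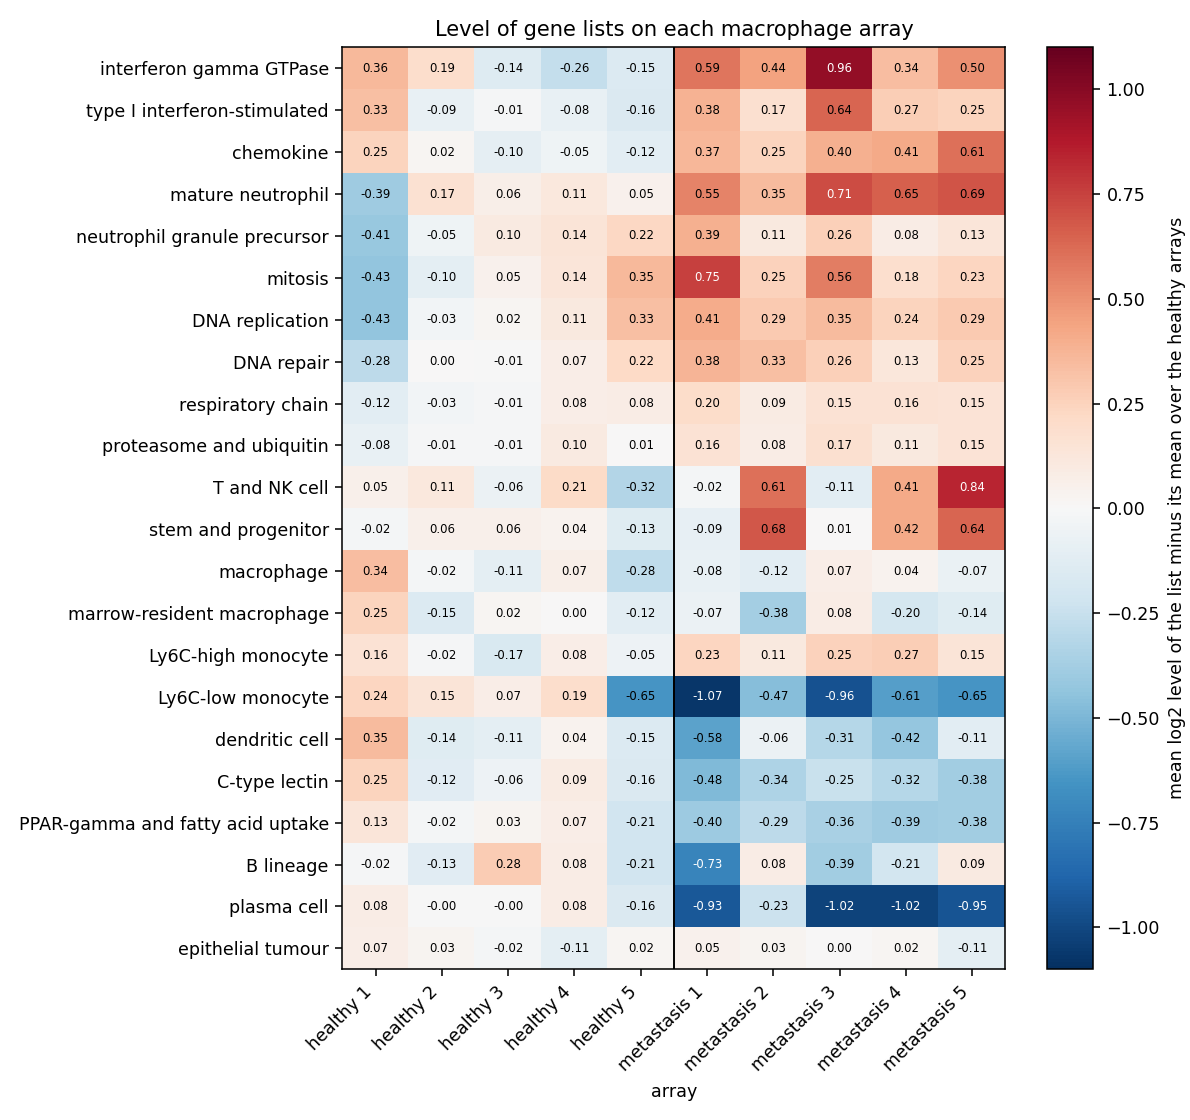
Rows are gene lists and columns the 10 macrophage arrays, and each cell gives the mean log2 level of a list on an array minus its mean over the 5 healthy arrays, in red where higher and blue where lower. Plasma cell genes are lower on metastasis arrays 1, 3, 4 and 5 than on array 2, Ly6C-low monocyte genes are low on healthy array 5, and T and NK cell and stem and progenitor genes are high on metastasis arrays 2, 4 and 5.

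Cell cycle genes were higher in nearly every member and by small amounts. Of 45 mitosis genes 44 were higher (median 0.41), of 34 DNA replication genes all 34 (median 0.30) and of 30 DNA repair genes 24 (median 0.29), and none of them passed. The groups did not overlap, with metastasis higher, for 2, 5 and 3 genes of these lists, against 0.976% of all genes. Spc24, a kinetochore gene, stood at 0.59 ± 0.14 (SE; adjusted p = 0.115), Mcm10, a replication initiation gene, at 0.57 ± 0.16 (SE; adjusted p = 0.199), and Bard1, the partner of BRCA1, at 0.82 ± 0.22 (SE; adjusted p = 0.196). The mean level of the mitosis list lay between 6.91 (array 1) and 7.70 (array 5) on the healthy arrays and between 7.52 and 8.09 on the metastasis arrays, so that healthy array 5 overlapped with them. The DNA replication list lay between 7.01 (array 1) and 7.78 (array 5) on the healthy and 7.69 and 7.85 on the metastasis arrays. For DNA repair the ranges were 5.70 (array 1) to 6.20 (array 5) and 6.11 to 6.36, so that healthy array 5 overlapped in both lists. The median of the mitosis list ran from 0.30 to 0.51 over alternative settings and left-out arrays. Cell cycle genes outside these lists did pass: Cdca5, the sororin gene that holds sister chromatids together, stood at 6.15, 6.05, 5.92, 6.44 and 6.59 on the healthy and at 7.09, 7.01, 6.76, 7.06 and 7.04 on the metastasis arrays and rose by 0.76 ± 0.13 (SE; adjusted p = 0.0191). Ercc6l, a helicase gene of mitotic chromosomes, stood at 5.78, 5.79, 5.95, 6.26 and 6.55 and at 7.06, 6.64, 6.80, 6.77 and 6.92 and rose by 0.77 ± 0.15 (SE; adjusted p = 0.0384). Both were without overlap, both were named after their values were seen, and they lost their calls in 5 and 8 of 10 leave-one-out fits (highest adjusted p 0.0652 and 0.125). Mitosis genes were highest on metastasis arrays 1 and 3, and stem and progenitor genes on arrays 2, 4 and 5.

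**Figure D5:**
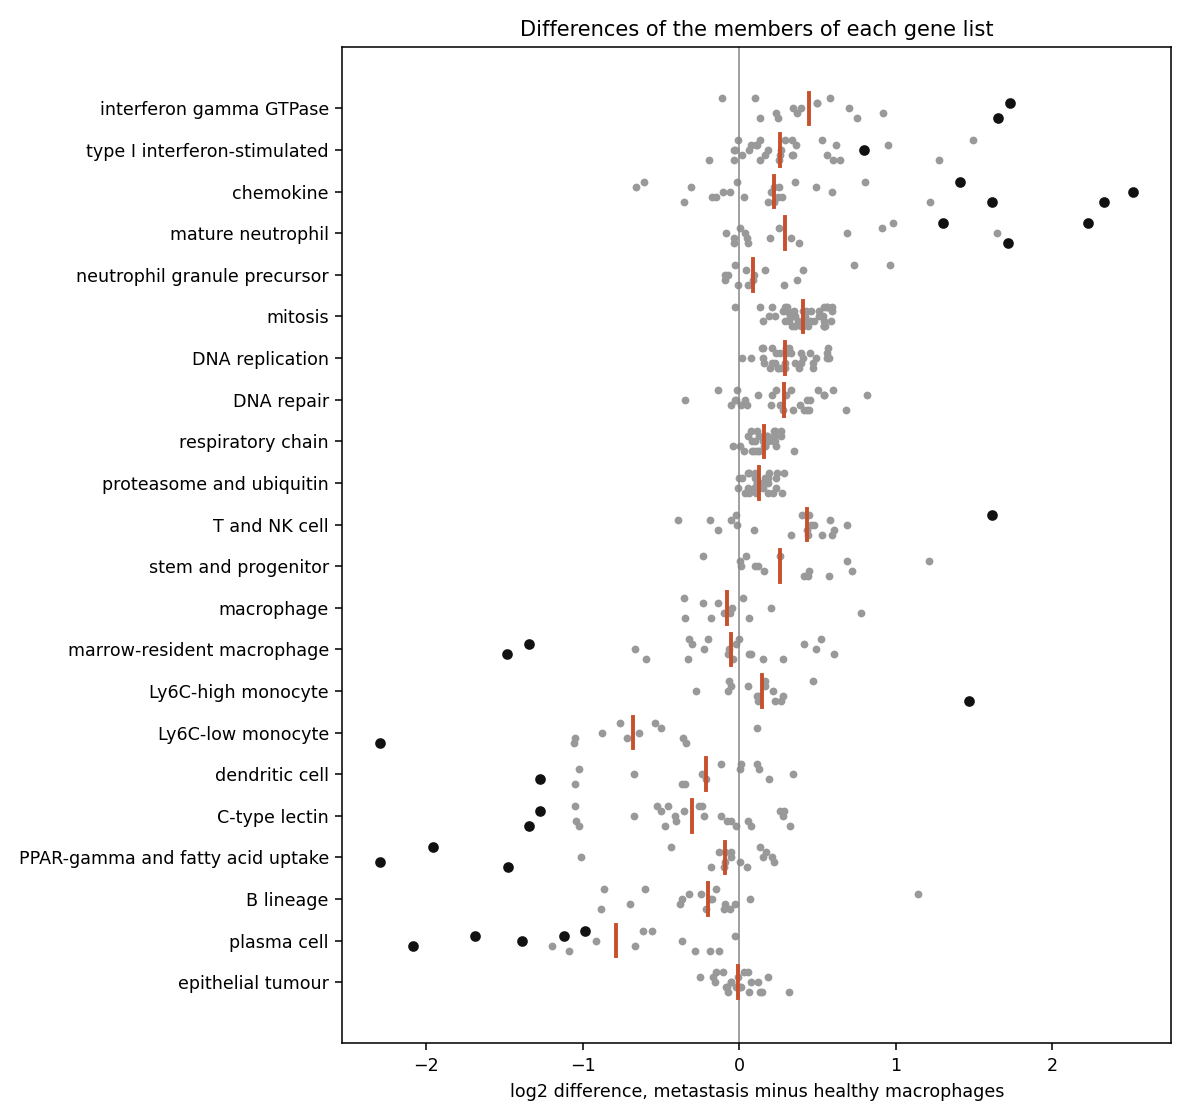
Each point is 1 measured gene of a list, placed by its log2 difference, metastasis minus healthy macrophages, with black points for genes past the adjusted threshold and a red bar for the median of the list. Mitosis and DNA replication genes lie almost wholly to the right of 0 without a black point, plasma cell genes lie wholly to the left, and the chemokine list spreads from Pf4 at -0.66 to Cxcl9 at 2.52.

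Metabolic genes changed singly against small shared shifts. Acod1, whose enzyme makes the antimicrobial metabolite itaconate, stood at 3.70, 3.73, 4.12, 3.57 and 3.74 on the healthy arrays and at 5.38, 4.37, 5.39, 5.39 and 4.89 on the metastasis arrays and rose 2.49-fold without overlap (adjusted p = 0.00506), the only one of 26 TCA cycle genes that passed. Npl, which breaks down sialic acid, stood at 5.47, 6.05, 6.37, 6.36 and 6.08 and at 7.61, 7.35, 7.64, 7.95 and 7.79 and rose 3.04-fold (adjusted p = 0.000447). All metastasis arrays lay well above the highest healthy one. Slc2a1, the glucose transporter GLUT1, rose by 0.59 ± 0.10 (SE; adjusted p = 0.0234), alone among 27 glycolysis and hypoxia genes (20 higher, median 0.11), and lost its call in 6 of 10 leave-one-out fits (highest adjusted p 0.0826). Of 29 respiratory chain genes 28 were higher (median 0.16), of 30 proteasome and ubiquitin genes 28 (median 0.13), of 34 mitochondrial ribosome and import genes 28 (median 0.13) and of 31 cytosolic ribosomal protein genes 27 (median 0.07). None of these 4 lists had a gene past the threshold. Their medians kept their sign over all alternative settings and left-out arrays, which reuse the same arrays. The mean level of the respiratory chain list did not overlap between groups (healthy up to 8.185, metastasis from 8.195). The other lists did overlap: proteasome (healthy up to 8.633, metastasis from 8.614), mitochondrial ribosome (6.605 and 6.584) and cytosolic ribosomal protein (8.524 and 8.452). Slc12a2, the sodium, potassium and chloride cotransporter NKCC1, stood at 8.04, 7.74, 8.13, 8.03 and 6.46 on the healthy and at 5.14, 6.45, 5.98, 5.77 and 5.38 on the metastasis arrays and fell by 1.93 ± 0.30 (SE; adjusted p = 0.0115). Healthy array 5 lay almost at the level of metastasis array 2, and the other 4 healthy arrays far above. Scnn1a, a chain of the epithelial sodium channel, stood at 5.74, 5.81, 5.78, 5.81 and 5.64 and at 5.29, 5.11, 4.99, 4.95 and 5.01 and fell by 0.68 ± 0.10 (SE; adjusted p = 0.00506).

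Further genes past the threshold stood outside these groups. Dnase1l3, a secreted nuclease that digests DNA of dying cells, stood at 3.52, 2.84, 3.29, 3.01 and 2.99 on the healthy and at 4.47, 4.15, 4.83, 4.63 and 4.33 on the metastasis arrays and rose 2.56-fold without overlap (adjusted p = 0.000702). Chit1, the chitotriosidase gene of activated macrophages, rose by 0.98 ± 0.17 (SE; adjusted p = 0.0234), and Insl3, an insulin-like peptide gene known from the testis, by 0.82 ± 0.14 (SE; adjusted p = 0.0234). Stxbp6 stood at 7.16, 6.75, 6.92, 6.99 and 6.97 on the healthy and at 6.08, 6.11, 6.33, 5.99 and 6.28 on the metastasis arrays and fell by 0.80 ± 0.11 (SE; adjusted p = 0.00285). Of 35 vesicle and membrane traffic genes Dennd5b fell by 1.21 ± 0.21 (SE) and Hid1 fell by 1.19 ± 0.21 (SE), and each lost its call in 6 of 10 leave-one-out fits (highest adjusted p 0.0776 and 0.0801). The adhesion G protein-coupled receptor gene Adgrg7 fell by 1.06 ± 0.17 (SE), the ABC transporter gene Abcg3 fell by 0.91 ± 0.15 (SE), P2ry10b fell by 0.82 ± 0.15 (SE) and Rcbtb2 fell by 0.64 ± 0.11 (SE), at adjusted p from 0.0138 to 0.0312. Chit1, Insl3, Adgrg7, Abcg3, P2ry10b and Rcbtb2 lost their calls in 1 to 9 of 10 leave-one-out fits (highest adjusted p 0.104), and Dnase1l3 and Stxbp6 in none.

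The remaining 12 genes past the threshold are named because they complete the count, after their values were seen. Rbmxl1, an RNA-binding protein gene, stood at 6.58, 6.64, 6.54, 6.52 and 6.61 on the healthy and at 7.28, 7.06, 7.24, 7.21 and 7.18 on the metastasis arrays and had the smallest adjusted p of them that rose (0.00506). Anpep, the aminopeptidase N gene, rose by 1.04 ± 0.20 (SE), with metastasis array 4 at 5.37 inside the healthy range, Fam20c, a kinase gene of the secretory pathway, by 0.79 ± 0.14 (SE) and Rgs1, a brake on chemokine receptor signals, by 0.70 ± 0.11 (SE). Mreg rose by 0.69 ± 0.12 (SE), Rnf24 by 0.49 ± 0.09 (SE) and the transcribed pseudogene Gm5424 by 0.70 ± 0.13 (SE). The odorant receptor gene Olfr164 rose by 0.77 ± 0.13 (SE) from healthy values of 2.23, 2.03, 2.42, 2.36 and 2.40, within or below the level of the Y-linked genes, so its fold has no exact value. Cyb5r1, a reductase gene, fell by 0.51 ± 0.09 (SE), Stmn3, a stathmin gene, fell by 0.51 ± 0.09 (SE), the non-coding Gm5547 fell by 1.04 ± 0.13 (SE) and the clone 1700096K18Rik fell by 0.74 ± 0.13 (SE). All of these except Rbmxl1 and Gm5547 lost their calls in 2 to 9 of 10 leave-one-out fits (highest adjusted p 0.147 for Anpep). Cdca5 and Ercc6l were described with the cell cycle, and Gm5483 with the stefins.

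Of 81 gene lists with 1674 distinct measured members, 32 held at least 1 gene past the threshold and 49 none. List medians lay within 0.1 of 0 in 52, above 0.25 in 8 and below -0.25 in 3. Among the lists without a gene past the threshold were osteoclast genes (22, median -0.05), lysosome and V-ATPase genes (37, median -0.01), efferocytosis and opsonin genes (23, median -0.05), iron and heme genes (24, median 0.01) and matrix proteases and their inhibitors (27, median -0.01). In the last, Mmp14, a membrane-bound collagenase gene, stood at 4.74, 4.43, 4.87, 4.34 and 5.01 on the healthy and at 6.24, 5.29, 6.10, 5.01 and 6.49 on the metastasis arrays. Metastasis array 4 overlapped with healthy array 5, and the difference of 1.15 ± 0.25 (SE) did not pass (adjusted p = 0.0765). F11r, the junctional adhesion molecule gene, was higher on all metastasis arrays than on any healthy one (1.21 ± 0.26, SE; adjusted p = 0.0746). Of 40 myeloid transcription factor genes none passed and 24 were lower (median -0.08), with Klf4 lower without overlap (-0.50 ± 0.13, SE). Of 30 genes of Notch, Wnt and TGF-beta signalling 21 were lower (median -0.14), with the Notch ligand gene Jag1 at -0.75 ± 0.17 (SE) and the Notch target gene Hes1 at -0.40 ± 0.11 (SE), and none passed.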

How the data were processed

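The authors deposited log2 expression values, a scale read from their range (1.57 to 12.5), with each gene symbol once per array, none missing and no detection call. Per the submitters' processing notes they were made with oligo, an R package for such arrays. The sources used here give neither its version nor its normalization, background correction and summary to genes. The 5 metastasis and 5 healthy macrophage arrays were taken from the series table by their titles, replicates were numbered in the order of the labels, and 9 columns of monocyte arrays entered 1 alternative only. Group means were fitted with limma (lmFit, then eBayes; version 3.58.1, under R 4.3.3) on all genes without a filter, with Benjamini-Hochberg adjustment over all 20998 genes and a threshold of 0.05. Differences are metastasis minus healthy, with their standard error.

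Of the symbols 20573 were current in the RefSeq annotation of GRCm38.p6, 350 only synonyms and 75 neither. Promoter windows are those of RefSeq. Cxcl11, Cfb and Lipg were looked up too, but the windows used here held none for them, so they are not shown. Genes were named by rule: the 20 largest rises and 20 largest falls past the threshold without overlap (predicted transcripts left out unless they stand in a list), up to 6 members of each of 81 gene lists (those past the threshold first, then by unadjusted p), and a few fixed genes. Ace and Derl3 were named after their values were seen. Cd3d, S100a8, S100a9, Csta1, Csta2, Csta3 and Gm5483 were also named outside the rule. The members and lists were chosen with earlier results of these data known. The level of a list on an array is the mean over its measured members. Run on simulated data in which 200 genes had been shifted, by 0.5, 1 or 2, the fit gave 7.27% false calls. Alternatives were all 19 arrays, a trended and robust prior, array weights, dim genes left out (10731 genes kept), quantile normalization, equal array medians, a 2-fold threshold, and arrays left out. The number of arrays limits the precision.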

Additional observations from a re-analysis of the deposited data

Results flagged for a closer look

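In each group of 5 arrays the gap between the highest or lowest array and its neighbour was divided by the range of the group, for the 174 genes checked here, and values above 0.71 mark an array far from the others. By this measure 32 of 348 groups (9.2%) were marked, where chance marks about 5%, or 1 in 20. Metastasis array 2 gave 12 of them: Cxcl11 (0.736, level 5.97), Cxcl9 (0.749, level 8.52), Dennd5b (0.732, level 3.68), Gm5483 (0.77, level 4.34), Jchain (0.8, level 9.88), Mzb1 (0.898, level 7.73), Rgs1 (0.759, level 4.86), Derl3 (0.777, level 5.51), Stfa1 (0.712, level 7.79), Oas2 (0.77, level 5.76), Ms4a6d (0.74, level 7.21) and Tgfbi (0.734, level 9.28). For the interferon, chemokine and stefin genes among these it was the lowest metastasis array, and for Jchain, Mzb1, Derl3, Dennd5b and Rgs1 the highest.

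Healthy array 5 gave 6, each as the lowest healthy array: Fabp4 (0.828, level 5.85), Slc12a2 (0.765, level 6.46), Treml4 (0.872, level 8.79), Ace (0.751, level 8.25), Pparg (0.875, level 5.25) and Adgre4 (0.864, level 8.99). Healthy array 1 gave 5: Cfb (0.779, level 6.14), Il1f9 (0.86, level 5.16), Cxcr2 (0.812, level 8.2), Mrpl13 (0.793, level 6.84) and Bard1 (0.727, level 4.35), being the highest healthy array for Cfb and the lowest for the others. Healthy array 4 was the highest of its group for Iigp1 (0.764, level 4.17), Il1r2 (0.726, level 6.37) and Lyz2 (0.785, level 12.5), and healthy array 3 for Rnf24 (0.811, level 4.31) and Socs1 (0.762, level 5.88).

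The remaining marks lay in the metastasis group. Array 3 stood apart for Cdca5 (0.762, level 6.76) and Oasl2 (0.896, level 6.58), low for the first and high for the second. Array 1 was high for Rpl24 (0.83, level 4.36), and array 4 low for Mrpl13 (0.77, level 7.13).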

How the results depend on the processing

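The 65 genes past the threshold became 259 (134 higher, 125 lower) when the spread was shared with the monocyte arrays, 100 with array weights, 72 with dim genes left out, 69 with a trended and robust prior, 64 with equal array medians, 63 after quantile normalization, and 38 with an added 2-fold threshold. Without healthy array 5 and metastasis array 2 together the count was 186 (78 higher, 108 lower), and with 1 array left out it ran from 35 (without healthy array 4) to 131 (without healthy array 5, 52 higher and 79 lower). Healthy array 5 and metastasis array 2 were left out together because they lay between the groups. That choice was made from the values and favours more calls. None of the 65 changed direction in a fit that tested it, and 5 of them were not tested with dim genes left out. Of the 65, 64 were also called with all 19 arrays (not Il1r2, adjusted p = 0.24), all 65 with array weights, and 34 to 61 with 1 array left out. Calls were lost with equal array medians for Anpep, Ercc6l, Idi1, Ier3, Pnpla7 and Rnf24 (adjusted p from 0.051 to 0.056), after quantile normalization for Abca9, Anpep, Rnf24 and Txndc5 (0.055 to 0.0618), and with a trended and robust prior for Pnpla7, Rnf24, Stmn3, Vcan and Xcl1 (0.0519 to 0.0701). Among genes named as not passing, Ptger4, Cpt1a, Spc24, Cd300a, Cd300ld and Cd300lb passed without healthy array 5 (adjusted p from 0.00821 to 0.0479), and Ccl12, Socs3, Csf2rb2, Cd209a, Cd209d, Stfa1, F11r and Mmp14 without metastasis array 2 (0.00222 to 0.0415). Prdm1, Prtn3 and Irf4 passed with either of these 2 arrays left out (0.00403 to 0.049). Rag1 and Fcgr1 passed without healthy array 1, Clec10a without healthy array 3, Stfa2 without metastasis array 1 and Cxcl16 without metastasis array 4 (0.00792 to 0.0498). The cause of the moved counts was not tested, except that fewer arrays entered the fits with arrays left out and that the 2-fold threshold can only remove genes. Medians of the plasma cell, Ly6C-low monocyte, mitosis, DNA replication, interferon gamma GTPase, mature neutrophil, and T and NK cell lists kept their sign in all 17 settings, and those of 27 other lists did not. Values have no detection call. Differences of genes at the level of the Y-linked genes, or with values up to about 4 in either group, have no exact size. No paired analysis was possible because the labels give the arrays no shared replicate numbers, animals or batches.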
